A study of Mus musculus with 21 samples.

Results

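Livers of mice that had received nanosized titanium dioxide (TiO2) into the airways were compared between day 28 and day 1 after the instillation. The comparison was set by the treatment and time labels alone and took 12 of the 21 arrays of the series, 6 livers at day 28 and 6 at day 1. All 12 came from female C57BL/6 mice that were instilled once through the trachea with 162 µg of nano-TiO2 in 40 µl of saline with 10% lavage fluid, freed of cells, from the lungs of naive mice. Vehicle mice, 5 at day 1 and 4 at day 28, received the same liquid without particles. Mice of every group were bought at 5 to 7 weeks of age, had 1 to 3 weeks to settle in, and were anaesthetised with Hypnorm (fentanyl and fluanisone) and Dormicum (midazolam) both for the instillation and before they were killed. The day 28 mice were therefore 4 weeks older at sampling than the day 1 mice and further from that first anaesthesia, and in the TiO2 mice alone age, anaesthesia and the course of the particle response cannot be told apart. The vehicle mice give the background for the same interval.

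Each array carried the liver RNA of 1 mouse in the red dye (Cy5) and, in the green dye (Cy3), the same pooled RNA of mouse cell lines on every array. A level below is the log2 ratio of liver to reference, and a difference is a day 28 level minus a day 1 level, so that -1 means one halving. After an injury the liver alters its output of plasma proteins, the acute phase response, in which cytokines such as interleukin-6 and interleukin-1 act on hepatocytes through STAT3, NF-kB and C/EBP factors. Serum amyloid A proteins and lipocalin-2 are among its most inducible products, and in rodents they also serve as markers of a systemic reaction to inhaled particles. The liver is also the main site of cytochrome P450 enzymes, which oxidise drugs, steroids and fatty acids and are under control of nuclear receptors such as the constitutive androstane receptor.

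All arrays carried a liver profile. The 14 hepatocyte markers on the array were well above background on each of the 21 arrays, with medians of 5.08 to 6.94 over the TiO2 arrays, and of 13 lung markers 3 to 11 were above background. This was counted because the extraction text of the labels speaks of lung whereas the source of each sample is given as liver. The median level over the 10 lung markers tested, taken per TiO2 array, ran from 0.09 to 0.25 at day 1 and from -0.003 to 0.20 at day 28. In the liver channel 12980 to 25250 probes per TiO2 array were called well above background. The arrays on which scan day 2 is given in the headers stood apart, with 21198 to 25250 such probes against 12980 to 16896 on the other 2 scan days. The lung markers above background numbered 8 to 11 on the TiO2 arrays of scan day 2, and 4 to 6 and 3 to 6 on those of scan days 1 and 3. Scan day accounted for 91.3% of the first principal component over the 21 arrays, which held 39.7% of the variance, and the 4 groups for 1.56%. Each of the 3 scan days held 2 TiO2 livers of either time, so scan day was fitted as a block. Differences within each scan day rest on 2 against 2 mice. They are given for Saa3, Saa1 and Cyp2b10 and for some lists and markers, and not for the other genes that passed.

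Between day 1 and day 28, 19 of 17639 tested features (named genes and unnamed probes) changed in the TiO2 livers, 0.108% of those tested, at an adjusted p under 0.05 (limma, Benjamini-Hochberg). Of these, 12 fell (0.068%) and 7 rose (0.0397%), by 0.507 to 2.46 on the log2 scale. Acute phase genes (Saa1, Saa3, Lcn2) and cytochromes P450 (Cyp2b10, Cyp3a13) had the largest named decreases, and Coq10b, Shld2 and Igfbp2 the largest named increases. In 9 of the 19 the levels of the 6 livers at day 28 and the 6 at day 1 did not overlap. Over all features the day 28 levels lay wholly below the day 1 levels for 31 (0.176%) and wholly above for 36 (0.204%). At an unadjusted p under 0.05, 709 features were lower (4.02%) and 829 higher (4.7%), and the median difference over all features was 0.00375. The split of 7 higher to 12 lower became 3 to 10 with arrays scaled to equal spread and 1 to 11 with the liver channel alone.

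In the vehicle livers 0 features (0%) passed over the same interval in limma, with 659 lower (3.74%) and 690 higher (3.91%) at an unadjusted p under 0.05 and a smallest adjusted p of 0.128. All 19 features that passed in the TiO2 livers had the same sign in the vehicle livers, 14 of them with an unadjusted p under 0.05. For Saa3 that sign is uncertain. Its vehicle difference ran from -0.24 to 0.23 over 23 alternatives and had the opposite sign in 11 of them. The change in TiO2 livers minus that in vehicle livers, the direct test of a difference between them, passed for 0 features (0%) in limma, with 188 more negative (1.07%) and 307 more positive (1.74%) at an unadjusted p under 0.05. That difference reached an unadjusted p under 0.05 for 5 of the 19, namely Saa1, Saa3, Lcn2, Olfr1218 and Shld2. Vehicle differences are those of the fit with scan day and can depart slightly from the difference of the group means.

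**Figure D1:**
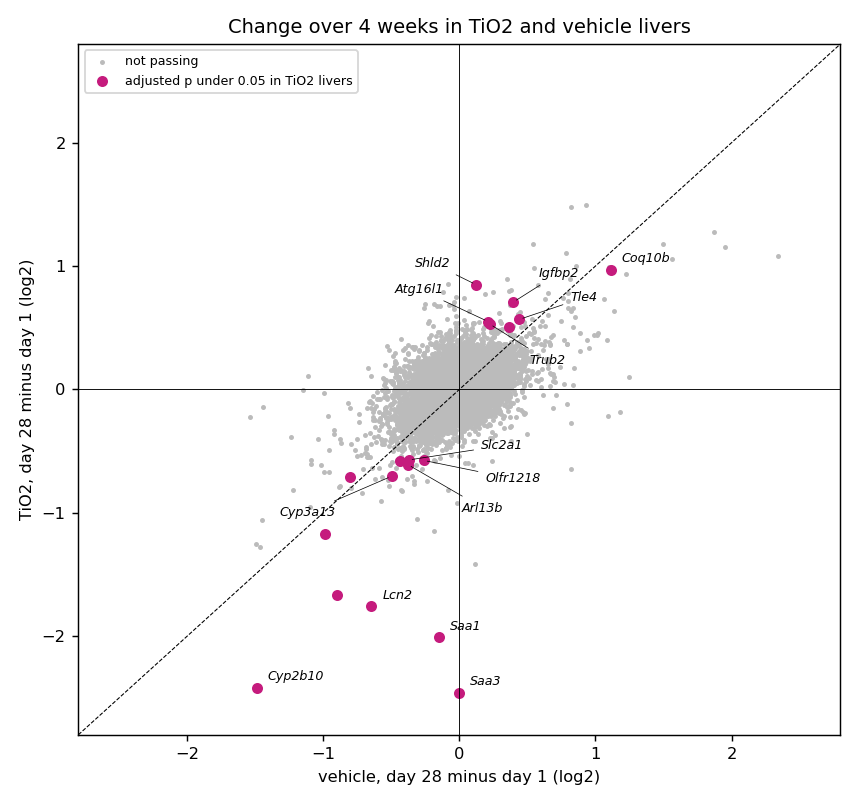
Change from day 1 to day 28 in TiO2 livers (vertical axis, log2) against the change in vehicle livers (horizontal axis, log2) for 17639 features. Filled points are the 19 features that passed in the TiO2 livers, the 14 named ones labelled, and the dashed line marks equal change. Saa3 and Saa1 lie near 0 on the vehicle axis, whereas Cyp2b10 and Coq10b lie away from 0 on both.

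The acute phase genes held 3 of the 12 decreases. Promoters are shown for these 3 because they fell together, as the 250 bases before the annotated start, 5′ to 3′ on the sense strand, from RefSeq on build GRCm38.p6. Capitals mark matches, on either strand, to GGG and CC with 5 bases of any kind between them (an NF-kB type motif), TTGCNNAA (a C/EBP type motif) or TTCNNNGAA (a STAT type motif), and no match overlapped another. The windows are chr7:46742981-46743230 for Saa1, chr7:46715677-46715926 for Saa3 and chr2:32387740-32387989 for Lcn2, each on the minus strand.
Saa1: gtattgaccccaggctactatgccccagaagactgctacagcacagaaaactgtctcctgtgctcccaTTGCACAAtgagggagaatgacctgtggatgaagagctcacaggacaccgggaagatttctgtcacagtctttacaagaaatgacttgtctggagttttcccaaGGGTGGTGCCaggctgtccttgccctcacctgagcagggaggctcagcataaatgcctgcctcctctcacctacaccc
Saa3: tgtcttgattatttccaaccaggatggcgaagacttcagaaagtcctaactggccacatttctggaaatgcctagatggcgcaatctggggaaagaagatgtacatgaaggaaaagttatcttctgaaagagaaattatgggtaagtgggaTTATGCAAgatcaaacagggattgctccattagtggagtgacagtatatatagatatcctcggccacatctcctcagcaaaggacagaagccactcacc
Lcn2: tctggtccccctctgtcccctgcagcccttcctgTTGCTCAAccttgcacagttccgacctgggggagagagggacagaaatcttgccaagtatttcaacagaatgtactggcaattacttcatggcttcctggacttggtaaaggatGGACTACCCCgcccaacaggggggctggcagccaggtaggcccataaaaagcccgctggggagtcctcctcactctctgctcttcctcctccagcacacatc

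The C/EBP type motif was matched in all 3 windows and in 9.56% of the 32851 mouse promoter windows of this length. The NF-kB type motif was matched for Saa1 and Lcn2 and in 45.8% of all windows. The STAT type letters were not in these 3 windows and were in 7.02% of all windows. These matches describe letters and not bound sites.

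Saa3 encodes an inflammation-induced serum amyloid A (probe A_51_P337308). At day 1 its level in the 6 TiO2 livers had a lowest value of -0.81, a median of 1.81 and a highest of 3.34. At day 28 these were -1.66, -1.22 and -0.20. Of the 6 day 1 livers 5 lay above all day 28 livers and above the range of the vehicle livers, and replicate 2 lay among them. The mean went from 1.43 ± 1.46 (SD, n = 6) to -1.03 ± 0.58, a fall of 2.46 ± 0.43 (SE) on the log2 scale, or 5.5-fold (adjusted p = 0.0172). The vehicle livers stood at -0.98 ± 0.57 (n = 5) and -1.08 ± 0.33 (n = 4). The change in TiO2 minus that in vehicle livers was -2.46 ± 0.66 (unadjusted p = 0.00131, adjusted p = 1). Within scan days 1, 2 and 3 the TiO2 difference was -1.37, -2.63 and -3.37.

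Saa1 encodes an acute phase apolipoprotein made by hepatocytes (probe A_52_P318673). Its day 1 levels had a lowest value of 3.08, a median of 4.99 and a highest of 6.08, and its day 28 levels had 2.19, 2.69 and 3.93. The groups overlapped through replicate 2 of day 1 alone. The mean went from 4.85 ± 1.03 to 2.84 ± 0.65 (SD, n = 6 each), a fall of 2.01 ± 0.33 or 4.03-fold (adjusted p = 0.0112). The vehicle livers stood at 3.08 ± 0.48 (n = 5) and 2.85 ± 0.31 (n = 4), and the change in TiO2 minus that in vehicle livers was -1.86 ± 0.51 (unadjusted p = 0.00139, adjusted p = 1). Another Saa1 probe gave a smaller difference of -1.17. Within scan days 1, 2 and 3 the TiO2 difference was -1.14, -2.18 and -2.71.

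Lcn2 encodes lipocalin-2, which binds bacterial iron carriers and is made by hepatocytes in inflammation and by neutrophils (probe A_51_P510156). Its day 1 levels had a lowest value of 0.53, a median of 2.01 and a highest of 2.83, and its day 28 levels had -0.02, 0.07 and 0.27. The groups did not overlap. The mean went from 1.84 ± 0.85 to 0.09 ± 0.10 (SD, n = 6 each), a fall of 1.75 ± 0.24 or 3.38-fold (adjusted p = 0.00373). The vehicle livers also stood lower at day 28, at -0.28 ± 0.13 (n = 4) against 0.38 ± 0.17 (n = 5) at day 1, a fitted difference of -0.65 ± 0.29 (unadjusted p = 0.0342). The TiO2 change was larger than the vehicle change by 1.11 ± 0.38 on the log2 scale in the downward direction (difference -1.11, unadjusted p = 0.00757, adjusted p = 1). At day 28 the probe was well above background in 5 of 6 TiO2 and 2 of 4 vehicle livers, so the low levels are less certain than the high ones.

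The 6 day 1 livers differed widely among themselves. Replicate 2 was lowest for all 3 genes, and replicate 6 highest. The exact test that exchanges time labels within scan days, which does not pool the spread over genes, gave a two-sided p of 0.00926 for Lcn2, the smallest that its 216 splits allow, and 0.0185 for both Saa1 and Saa3. These exact p, and those given below, are unadjusted and come from 26 genes so tested, 4 of which reached the smallest value. The call for Saa3 was lost when any one of day 1 replicates 1, 3 and 6 or day 28 replicates 3 and 6 was left out, with differences of -2.13 to -2.36 and adjusted p of 0.0505 to 0.0648. The calls for Saa1 and Lcn2 were kept whichever TiO2 array was left out, with differences of -1.77 to -2.33 and of -1.55 to -2.02. In a fit of the 12 TiO2 arrays alone the adjusted p was 0.0543 for Lcn2, 0.0594 for Saa1 and 0.0842 for Saa3, and over all alternatives it ran up to 0.0543, 0.181 and 0.143.

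**Figure D2:**
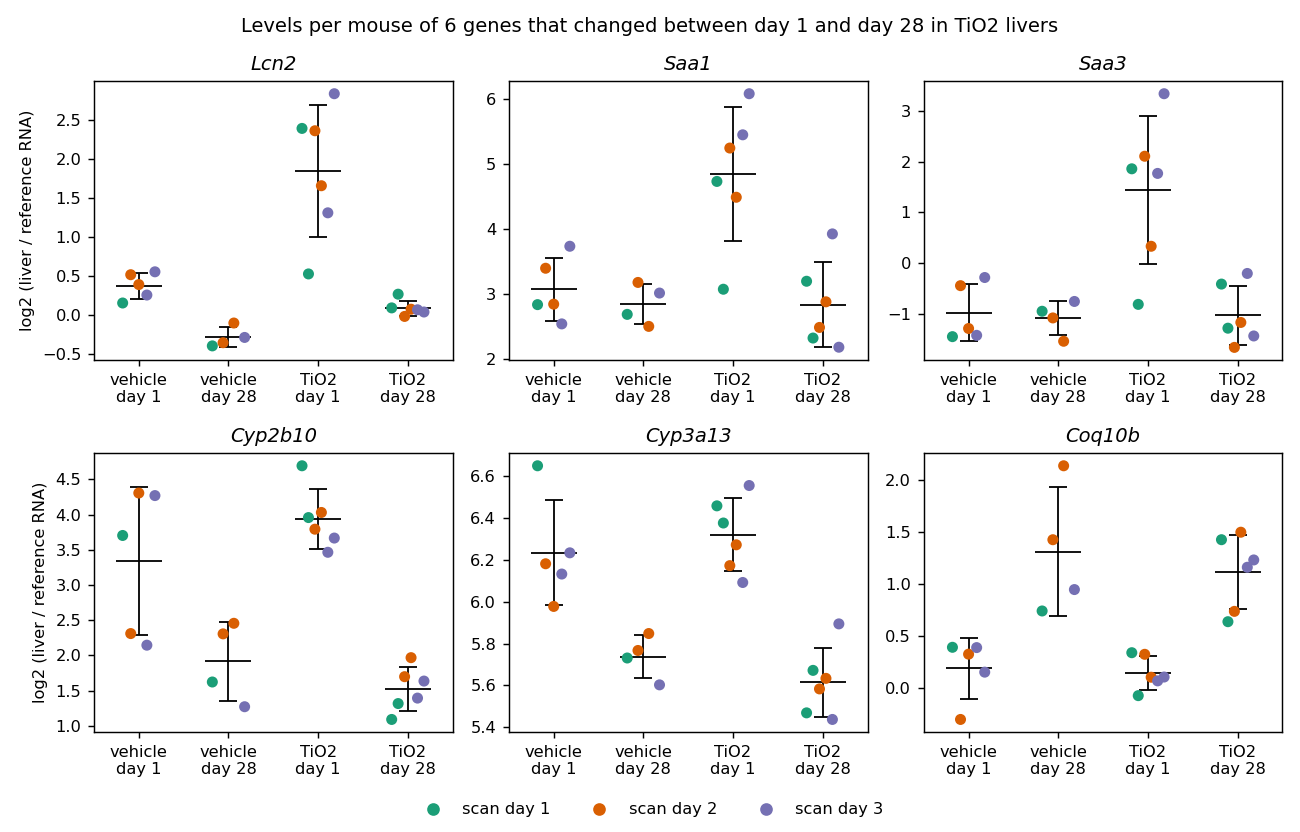
Level of each mouse (log2 of liver over reference RNA) for Lcn2, Saa1, Saa3, Cyp2b10, Cyp3a13 and Coq10b in the 4 groups. Points are mice coloured by scan day, horizontal bars are means and error bars SD (n = 5, 4, 6 and 6 from left to right). Saa1, Saa3 and Lcn2 are high and widely spread in the TiO2 day 1 livers, and Cyp2b10, Cyp3a13 and Coq10b differ between the days in both treatments.

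Saa2, a close relative of Saa1, behaved differently in the ratio and in the raw signals. Its level had a lowest value of 4.46, a median of 4.97 and a highest of 5.51 at day 1, and 4.22, 4.58 and 5.34 at day 28, a difference of -0.37 ± 0.16 (adjusted p = 0.516). The liver channel of the same probe, before any normalization, went from 15.09 ± 1.99 to 11.80 ± 1.01 (log2 of scanner intensity, SD, n = 6), a difference of -3.29. The reference channel of that probe, which held the same RNA on every array, went from 11.15 ± 1.43 to 8.33 ± 0.79, a difference of -2.83. Over all 17639 features the reference channel differed by -0.19 (the 1st percentile) to 0.15 (the 99th). With the liver channel alone Saa2 passed, at -3.28 (adjusted p = 0.044), and over its other alternatives the adjusted p ran up to 1. Saa1 had a liver channel difference of -3.13 and a reference channel difference of -1.03. Of the 33 acute phase genes tested, 6 had a reference channel difference below that 1st percentile (Hp, Itih4, Orm2, Saa1, Saa2, Serpina3n) and 0 above the 99th. For these 6 the ratio and the liver signal therefore give different sizes of change. Saa1 and Saa2 are near-identical in sequence, so the gene behind either probe's signal is uncertain.

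Of 35 acute phase genes listed, 33 passed the filter on dim probes, 32 of them well above background in at least 50% of the livers of both TiO2 groups. Of the 33, 27 were lower at day 28 and 6 higher, 3 passed, and 12 were lower at an unadjusted p under 0.05, or 36.4% against the 4.02% of all features. The list was chosen with results of these data known and is no independent evidence of its direction. Its median difference was -0.265 in the TiO2 livers, against 0.00375 over all features, and -0.146 in the vehicle livers. It was below 0 in each of 26 alternatives, from -0.784 to -0.105. Within scan days 1, 2 and 3 the median was -0.25, -0.20 and -0.40. The SD over livers was wider at day 1 than at day 28 for 29 of the 33, and for 10175 of all 17639 features. These genes were measured in the same livers, so the 29 are not independent observations.

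Other acute phase genes did not pass. Saa4, a constitutive serum amyloid A, stood at 6.23 ± 0.34 and 5.64 ± 0.27 (difference -0.58 ± 0.12, adjusted p = 0.0842), with -0.28 by its other probe. The orosomucoids, abundant plasma glycoproteins, differed by -0.77 ± 0.18 for Orm2, -0.92 ± 0.26 for Orm3 and -0.44 ± 0.11 for Orm1, with adjusted p of 0.137, 0.219 and 0.166. The exact p within scan days was 0.00926 for Orm1 and Orm2 and 0.0463 for Orm3. The vehicle differences were -0.33, -0.02 and -0.24. Lbp, which carries bacterial lipopolysaccharide, had levels of 2.17 to 2.81 at day 1 and 1.92 to 2.13 at day 28 that did not overlap, a difference of -0.41 ± 0.13 (adjusted p = 0.377) against 0.03 ± 0.16 in vehicle. Haptoglobin (Hp) differed by -0.19 ± 0.13, serum amyloid P (Apcs) by -0.28 ± 0.16 and albumin (Alb) by -0.14 ± 0.13.

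**Figure D3:**
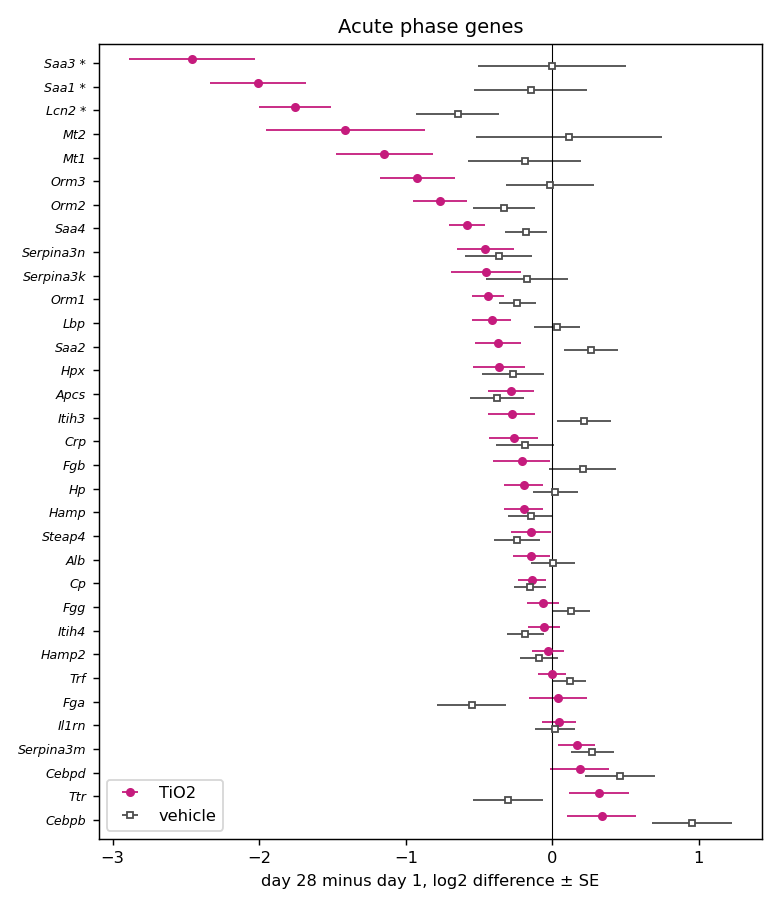
Difference between day 28 and day 1 (log2, point, with SE as bar) for the 33 acute phase genes tested, in TiO2 livers (filled circles) and vehicle livers (open squares). Asterisks mark the 3 genes that passed in TiO2 livers. The largest TiO2 differences, from Saa3 at -2.46 down to Lcn2 at -1.75, have smaller vehicle counterparts.

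Metallothioneins, zinc-binding proteins of the acute phase, had large differences with wide spread. Mt1 levels had a lowest value of -0.54, a median of 0.33 and a highest of 0.88 at day 1, and -1.49, -0.85 and -0.45 at day 28. The difference was -1.15 ± 0.33 (adjusted p = 0.247, exact p within scan days 0.00926), against -0.19 ± 0.39 in vehicle. Mt2 differed by -1.41 ± 0.54 (adjusted p = 0.46) against 0.11 ± 0.63. Among 21 metal and iron genes tested 0 passed in limma, with 4 lower (19%) and 2 higher (9.52%) at an unadjusted p under 0.05, against 4.02% and 4.7% of all features, and a median of -0.115 (vehicle -0.152). In vehicle livers too 4 were lower and 2 higher. Hepcidin (Hamp), the hormone that limits iron export, differed by -0.19 ± 0.13, and the transferrin receptor Tfr2 by -0.20 ± 0.08 (adjusted p = 0.727 and 0.486).

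Markers of neutrophils were examined because Lcn2 is also a granule gene. Of 15 listed, 6 were tested, 2 higher and 4 lower at day 28, and Lcn2 alone passed. The median difference over these 6 was -0.087 (vehicle -0.11). The granule genes Ngp, Camp, Elane, Mmp8 and Mmp9 were well above background on 0 of 12 TiO2 arrays. Mpo was so on 3 livers at day 1 and 2 at day 28, Csf3r on 3 and 3, S100a8 on 3 and 2, and S100a9 on 6 and 6. The differences of Mpo, Chil3 and Csf3r were 0.15 ± 0.11, -0.18 ± 0.15 and 0.10 ± 0.09. Mpo and Csf3r were the 2 that were higher at day 28, and S100a8 and S100a9 were lower, as were Chil3 and Lcn2. The median level over the 6 tested, taken per array, ran from -0.21 to 0.23 at day 1 and from -0.10 to 0.12 at day 28.

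Signalling components upstream of the acute phase and complement held no gene that passed. Of 23 tested genes of the interleukin-6 and NF-kB pathways 0 passed in limma, 1 was higher (4.35%, near the 4.7% of all features) and 0 lower at an unadjusted p under 0.05, and the median was 0.052 (vehicle -0.047). The leukaemia inhibitory factor receptor Lifr differed by 0.52 ± 0.20 and the transcription factor Irf1 by -0.25 ± 0.13 (adjusted p = 0.477 and 0.627). The other 3 Lifr probes gave 0.03, 0.05 and 0.05, and the other Irf1 probe -0.01. Of 26 complement genes 0 passed, 3 were lower (11.5% against 4.02% of all features) and 0 higher at an unadjusted p under 0.05, and the median was -0.095 (vehicle -0.075), which changed sign with arrays scaled to equal spread (0.00765). C8a, a part of the membrane attack complex, stood at 6.50 ± 0.47 and 5.77 ± 0.36, a difference of -0.73 ± 0.22 (adjusted p = 0.304) against -0.62 ± 0.26 in vehicle. Serping1, the C1 inhibitor, differed by -0.31 ± 0.10 and C3, the central component, by -0.15 ± 0.11 (adjusted p = 0.402 and 0.728). The other C3 probe gave -0.49.

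Cytochromes P450 held the largest called decrease after Saa3. Cyp2b10, a textbook target of the constitutive androstane receptor that oxidises many drugs (probe A_52_P472486), had day 1 levels with a lowest value of 3.46, a median of 3.87 and a highest of 4.69. Its day 28 levels had 1.09, 1.51 and 1.97, with no overlap. The mean went from 3.93 ± 0.42 to 1.52 ± 0.31 (SD, n = 6 each), a fall of 2.42 ± 0.31 or 5.34-fold (adjusted p = 0.00258). The vehicle livers stood at 3.35 ± 1.05 (n = 5) and 1.91 ± 0.56 (n = 4), a difference of -1.49 ± 0.37 (unadjusted p = 0.000561), and 5 of 6 TiO2 livers at either time lay within the range of the 9 vehicle livers. The difference between the changes, -0.93 ± 0.48, had an unadjusted p of 0.0685. Within scan days 1, 2 and 3 the TiO2 difference was -3.12, -2.08 and -2.05.

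Cyp3a13, a steroid and drug oxidase (probe A_51_P114941), had day 1 levels with a lowest value of 6.09, a median of 6.32 and a highest of 6.55. Its day 28 levels had 5.44, 5.61 and 5.89, again with no overlap. It fell by 0.70 ± 0.10 or 1.63-fold (adjusted p = 0.00546) in the TiO2 livers, against a vehicle difference of -0.50 ± 0.12 (unadjusted p = 0.000532). The call was lost with arrays scaled to equal spread, at -0.55 (adjusted p = 0.334), and over all alternatives its adjusted p ran from 0.000483 to 0.58. The vehicle difference of Cyp3a13 had the opposite sign in 1 of 23 alternatives, at 0.26 with the scanner software's own ratio. The calls for Cyp2b10 and Cyp3a13 were kept whichever TiO2 array was left out.

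The next P450 genes in size did not pass, and their vehicle differences are given beside them. Cyp2c54 had day 1 levels of 3.40 to 4.50 and day 28 levels of 2.55 to 3.40 that did not overlap before rounding, a difference of -0.95 ± 0.20 (adjusted p = 0.0827) against -1.10 ± 0.24. Cyp2c39 differed by -0.57 ± 0.13 (adjusted p = 0.0995) against -0.46 ± 0.15, and its sign turned with the scanner software's own ratio (0.054). Cyp2c55 differed by -0.80 ± 0.23 (adjusted p = 0.252) against -0.80 ± 0.27, and was well above background in 5 of 6 livers at day 1 and 2 of 6 at day 28. Probes of the Cyp2c family can match RNA of near-identical relatives, so the member behind a value is uncertain.

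Of 50 genes listed as P450 enzymes and their regulators 47 were tested, 28 lower and 19 higher. Of these 2 passed, both lower. At an unadjusted p under 0.05, 9 were lower (19.1% against 4.02% of all features) and 1 higher (2.13% against 4.7%), and in vehicle livers 7 were lower and 2 higher. The median was -0.039 (vehicle -0.073), and it was above 0 with arrays scaled to equal spread and with the liver channel alone. The receptors Nr1i3 (the constitutive androstane receptor) and Nr1i2 (the pregnane X receptor) differed by -0.01 ± 0.15 and -0.05 ± 0.25. The abundant enzymes Cyp2e1, Cyp2a5 and Cyp3a25 differed by -0.06, -0.09 and -0.09. Abcc3, an export pump of conjugates that is listed with the antioxidant and bile acid genes, had levels of 3.63 to 4.47 at day 1 and of 3.03 to 3.58 at day 28 that did not overlap, a difference of -0.64 ± 0.17 (adjusted p = 0.194) against -0.59 ± 0.20 in vehicle. The other Abcc3 probe gave -0.17. Of 37 phase II conjugation genes 0 passed, 4 were lower (10.8%) and 3 higher (8.11%) at an unadjusted p under 0.05, and the median was -0.066 (vehicle -0.134), which changed sign with arrays scaled to equal spread. Gstm2, a glutathione transferase, differed by -0.41 ± 0.13 (adjusted p = 0.326). Of 27 antioxidant genes 0 passed, 4 were lower (14.8%) and 0 higher at an unadjusted p under 0.05, with 6 lower in vehicle livers, and Gclc, which makes glutathione, differed by -0.30 ± 0.11 (adjusted p = 0.454).

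**Figure D4:**
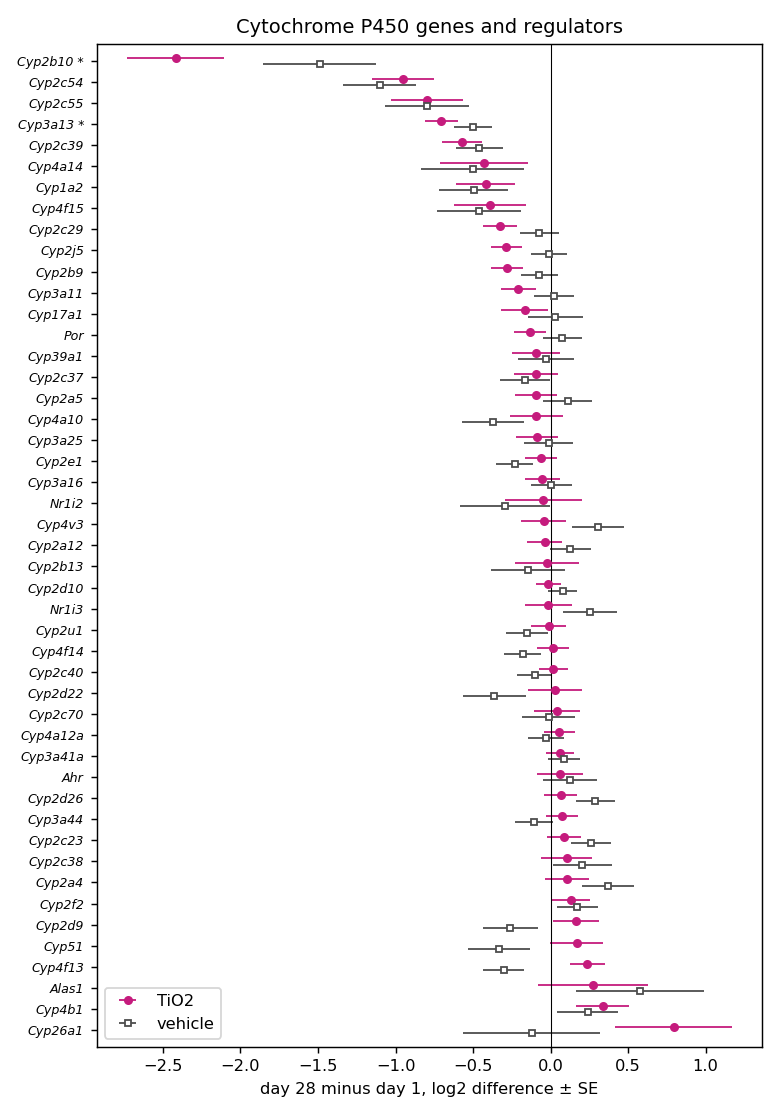
Difference between day 28 and day 1 (log2, point, with SE as bar) for the 47 P450 genes and regulators tested, in TiO2 livers (filled circles) and vehicle livers (open squares). Asterisks mark Cyp2b10 and Cyp3a13, which passed in TiO2 livers. The 5 lowest, from Cyp2b10 at -2.42 to Cyp2c39 at -0.57, are low in both treatments.

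The other 3 named genes that fell were Slc2a1, Arl13b and Olfr1218. Slc2a1, the glucose transporter GLUT1, had day 1 levels with a lowest value of -3.68, a median of -3.23 and a highest of -3.02, and day 28 levels of -4.08, -3.95 and -3.51, which overlapped. It fell by 0.57 ± 0.10 or 1.49-fold (adjusted p = 0.0112; vehicle -0.37 ± 0.11). Arl13b, a small GTPase of the cilium, went from 0.07 ± 0.13 to -0.54 ± 0.20 (SD, n = 6 each) with no overlap, a fall of 0.61 ± 0.11 (adjusted p = 0.0172; vehicle -0.38 ± 0.13), and its other 2 probes gave -0.36 and -0.37. Olfr1218, named as an olfactory receptor, went from 1.24 ± 0.15 to 0.67 ± 0.20 with no overlap, a fall of 0.58 ± 0.10 (adjusted p = 0.0112; vehicle -0.26 ± 0.11). Its probe was not well above background on every array, so the alternative limited to such probes did not hold it. The call for Olfr1218 was lost without day 1 replicate 1 (-0.54, adjusted p = 0.0533) and that for Slc2a1 without day 1 replicate 3 (-0.53, adjusted p = 0.0501). The call for Arl13b was lost without day 1 replicate 1, 2 or 3 or day 28 replicate 6, with adjusted p of 0.0575 to 0.0648 and differences of -0.56 to -0.59. Slc22a26, an organic anion transporter gene, was next in order with levels of 5.54 to 6.12 and 4.59 to 5.36 that did not overlap, a difference of -0.78 ± 0.16 (adjusted p = 0.0543; vehicle -0.52 ± 0.18).

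Of the unnamed probes 4 fell as well. A_51_P182362 went from 4.10 ± 0.38 to 2.43 ± 0.20 and A_52_P608474 from 1.67 ± 0.16 to 0.49 ± 0.22 (SD, n = 6 each), both with no overlap, falls of 1.67 and 1.18 (adjusted p = 0.00556 and 0.00546). Their vehicle differences were -0.90 ± 0.30 and -0.99 ± 0.21. Of the 19 passing features, A_51_P182362 and Saa1 were the 2 with a reference channel difference below the 1st percentile of all features. The ratio and the liver signal of A_51_P182362 therefore give different sizes of change. A_52_P78423 fell by 0.71 (vehicle -0.81) and A_51_P146802 by 0.58 (vehicle -0.44), both at an adjusted p of 0.0112 and with overlap. These 4 calls were kept whichever TiO2 array was left out.

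The 7 features that rose did so each by under 1 on the log2 scale. Coq10b, which acts in the use of coenzyme Q in the respiratory chain, had day 1 levels with a lowest value of -0.07, a median of 0.11 and a highest of 0.34, and day 28 levels of 0.64, 1.20 and 1.5, with no overlap. It rose by 0.97 ± 0.19 or 1.96-fold (adjusted p = 0.0454), against 1.11 ± 0.22 in vehicle, and its other 2 probes gave 0.52 and 0.48. Shld2, a subunit of the shieldin complex of DNA repair, had levels with a lowest value of 1.19, a median of 1.23 and a highest of 1.72 at day 1, and 1.66, 2.31 and 2.55 at day 28, which overlapped. It rose by 0.85 ± 0.15 (adjusted p = 0.0197) against 0.12 ± 0.18 in vehicle, a difference between the changes of 0.73 ± 0.23 (unadjusted p = 0.00522, adjusted p = 1), and its other 2 probes gave 0.31 and 0.23. Igfbp2, a binding protein of insulin-like growth factors secreted by the liver, stood at 2.69 ± 0.66 and 3.40 ± 0.57 and overlapped between the times. It rose by 0.71 ± 0.13 (adjusted p = 0.0284) against 0.40 ± 0.15 in vehicle.

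Tle4, a transcriptional corepressor, had levels of -0.19 to 0.39 at day 1 and 0.56 to 0.94 at day 28, with no overlap, and rose by 0.57 ± 0.11 (adjusted p = 0.035; vehicle 0.44 ± 0.13). Atg16l1, needed to form autophagosomes, rose by 0.55 ± 0.11 (adjusted p = 0.0453; vehicle 0.21 ± 0.13). Trub2, a mitochondrial pseudouridine synthase, rose by 0.53 ± 0.10 (adjusted p = 0.0284; vehicle 0.22 ± 0.11), though its other probe gave 0.08. The unnamed probe A_51_P143103 rose by 0.51 (adjusted p = 0.0284). Rbbp6, Hnrnpa1, Hsd17b6 and Tut1 came next, at 0.49, 0.43, 0.80 and 0.37, with adjusted p of 0.0973 to 0.0995, and did not pass. The other Rbbp6 probe gave 0.13. The other 2 Hnrnpa1 probes gave -0.00 and -0.17, so that the higher level was seen with 1 probe of 3.

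Each TiO2 array was left out in turn, and the differences without it are given as a range over the 12. The 7 increases each lost their call in 7 to 10 of these 12 fits, and the 12 decreases in 0 to 5. The Shld2 call was lost without day 1 replicate 1, 2, 3 or 6 or day 28 replicate 2, 3 or 6, over differences of 0.72 to 0.98. The Trub2 call was lost without any except day 1 replicates 3 and 4 and day 28 replicates 1 and 5, over 0.48 to 0.60. The Igfbp2 call was lost without any except day 1 replicate 4 and day 28 replicates 1 and 3, over 0.60 to 0.76. The Tle4 call was lost without any except day 1 replicate 5 and day 28 replicates 3 and 4, over 0.49 to 0.63. The calls of Atg16l1 and Coq10b were lost without any except day 28 replicates 1 and 5, and day 28 replicates 2 and 3, respectively, over 0.47 to 0.61 and 0.88 to 1.08. The call of A_51_P143103 was lost without any except day 1 replicate 5 and day 28 replicate 1. The adjusted p of these lost calls ran from 0.0504 to 0.16.

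No clock or immediate early gene passed in either treatment. Of 18 clock genes 4 were lower (22.2% against 4.02% of all features) and 1 higher (5.56% against 4.7%) at an unadjusted p under 0.05, with 3 lower and 2 higher in vehicle livers, and the median was 0.10 (vehicle 0.018). Arntl, which encodes the clock activator BMAL1, had levels with a lowest value of 0.59, a median of 1.07 and a highest of 1.19 at day 1, and -0.13, 0.26 and 0.98 at day 28. Its difference was -0.64 ± 0.21 (adjusted p = 0.388, exact p within scan days 0.0185) in TiO2 and -0.64 ± 0.24 in vehicle livers. Nfil3, a repressor that acts in the same loop, differed by -0.84 ± 0.23 and -0.72 ± 0.26, and its other probe gave -1.0 in TiO2 livers. Dbp, an output factor, differed by 1.00 ± 0.48 (adjusted p = 0.578), and Per1, Per2 and Nr1d1 by 0.13, 0.08 and 0.37. The other Per2 probe gave 0.11 and the other 2 Nr1d1 probes -0.01 and 0.11.

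Of 18 glucocorticoid-responsive genes Lcn2 alone passed. At an unadjusted p under 0.05, 4 were lower (22.2% against 4.02% of all features) and 1 higher (5.56%, near 4.7%). In vehicle livers 2 were lower and 5 higher. The median over the 18 genes was -0.035 (vehicle 0.14). It changed sign with arrays scaled to equal spread (0.040) and without day 1 replicate 4 or day 28 replicate 4. Angptl4, an inhibitor of lipoprotein lipase, differed by 0.99 ± 0.33 in TiO2 and 1.10 ± 0.39 in vehicle livers, and Fkbp5, a chaperone of the glucocorticoid receptor, by 0.18 ± 0.40, with -0.05 and -0.14 by its other 2 probes. Of 22 immediate early genes 0 passed, and the median was 0.11 (vehicle 0.17). At an unadjusted p under 0.05, 3 were higher (13.6% against 4.7%) and 2 lower (9.09% against 4.02%). Vehicle livers had 5 higher and 1 lower. Jund differed by 0.49 ± 0.14 and Jun by 0.54 ± 0.23, parts of the AP-1 factor, and the phosphatase Dusp1 by -0.46 ± 0.18 (vehicle -0.48 ± 0.21). Of 26 interferon-stimulated genes 0 passed, 5 were higher (19.2% against 4.7% of all features) and 0 lower at an unadjusted p under 0.05, beside 12 higher and 1 lower in vehicle livers, and the median was 0.11 against 0.28 in vehicle, below 0 (-0.011) with normexp on all spots. Ifit3, an antiviral effector, differed by 0.37 ± 0.15 and 0.79 ± 0.18, and Ifi35 by 0.27 ± 0.08 and 0.26 ± 0.09.

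Lipid genes did not pass. Among 25 genes of cholesterol synthesis, 4 were higher (16% against 4.7% of all features) and 2 lower (8% against 4.02%) at an unadjusted p under 0.05, with a median of -0.005 that changed sign with arrays scaled to equal spread and with the liver channel alone (vehicle -0.20). Hmgcs1, which makes the precursor of mevalonate, had levels with a lowest value of 2.26, a median of 2.75 and a highest of 2.92 at day 1, and 2.81, 3.34 and 4.01 at day 28. Its difference was 0.70 ± 0.20 (adjusted p = 0.231) against -0.25 ± 0.23 in vehicle, which differ by 0.95 ± 0.30 (unadjusted p = 0.00501, adjusted p = 1). The other Hmgcs1 probe gave a TiO2 difference of 0.13. Msmo1, a later step, differed by 0.54 ± 0.14 (adjusted p = 0.194), whereas Acat2, the first step, differed by -0.55 ± 0.18. Of 27 bile acid genes 4 were higher (14.8%) and 2 lower (7.41%) at an unadjusted p under 0.05. Cyp7a1, which catalyses the first step from cholesterol to bile acids, had levels of 1.69 to 3.72 at day 1 and 2.74 to 5.15 at day 28, a difference of 0.98 ± 0.44 (adjusted p = 0.538, exact p within scan days 0.037), and its other probe gave 0.05. Cyp8b1, which sets the share of cholic acid, differed by -0.03 ± 0.25.

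Of 32 lipogenic genes 4 were higher (12.5% against 4.7% of all features) and 1 lower (3.12% against 4.02%) at an unadjusted p under 0.05, among them Plin2, a lipid droplet coat protein, at 0.49 ± 0.19 and Elovl6, a fatty acid elongase, at 0.48 ± 0.21 (adjusted p = 0.477 and 0.536). Of 42 PPARA targets 4 were higher (9.52%) and 2 lower (4.76%, near the share of all features). Of 29 glucose and glycogen genes 3 were higher (10.3%) and 1 lower (3.45%), among them Pfkfb3, a regulator of glycolysis, at 0.74 ± 0.19 (adjusted p = 0.193; vehicle 0.63 ± 0.22). Of 47 genes of amino acid use and the urea cycle 5 were lower (10.6%) and 1 higher (2.13%). Glud1, glutamate dehydrogenase, differed by 0.38 ± 0.09 (adjusted p = 0.162) against 0.04 ± 0.11 in vehicle, and Ddc, which makes biogenic amines, by -0.52 ± 0.18 with no overlap (adjusted p = 0.415). The other Ddc probe, well above background on all 12 TiO2 arrays, gave 0.01. In the growth hormone and IGF list Igfbp2 alone passed of 23, and 3 were higher (13%) and 0 lower at an unadjusted p under 0.05. Egfr, the epidermal growth factor receptor, had levels of 0.50 to 2.11 at day 1 and 1.75 to 3.31 at day 28, a difference of 1.18 ± 0.34 (adjusted p = 0.242; vehicle 0.54 ± 0.39). Its other 3 probes gave -0.09, 0.25 and 0.59, so that the probes did not share a direction.

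Lists of proliferation, protein folding and matrix held no gene that passed. Of 25 genes of the endoplasmic reticulum stress list 3 were lower (12% against 4.02% of all features) and 2 higher (8% against 4.7%) at an unadjusted p under 0.05, with Herpud1, a degradation factor, at 0.66 ± 0.20 (vehicle 0.83 ± 0.24). Of 22 heat shock genes 3 were lower (13.6%) and 2 higher (9.09%), with a median of -0.12. Of 30 cell cycle genes 2 were lower (6.67%) and 1 higher (3.33%), shares near those of all features, with Tk1, thymidine kinase, at -0.36 ± 0.11 and cyclin D1 (Ccnd1) at 0.42 ± 0.14 (vehicle 0.67 ± 0.16). Of 27 p53 targets 2 were lower (7.41%) and 1 higher (3.7%), with Bbc3, the pro-apoptotic PUMA, at -0.79 ± 0.21 (adjusted p = 0.194; vehicle -0.88 ± 0.25). Of 31 extracellular matrix genes 2 were lower (6.45%) and 0 higher, and collagen Col1a1 differed by -0.27 ± 0.14, with -0.10 by its other probe above background. Of 41 ribosome biogenesis genes 6 were higher (14.6% against 4.7% of all features) and 0 lower, with a median of 0.089, and in vehicle livers 5 were higher and 1 lower, with a median of 0.067. Of 51 oxidative phosphorylation genes 2 were higher (3.92%) and 0 lower, with a median of 0.014.

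**Figure D5:**
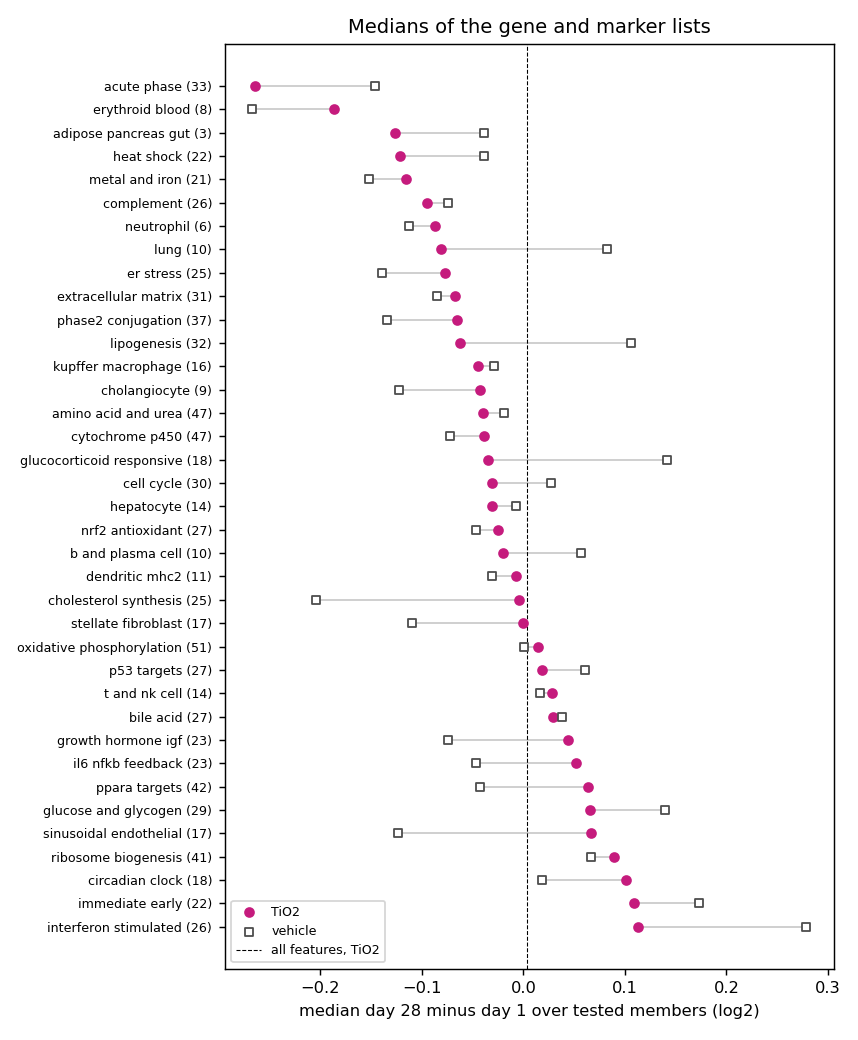
Median difference between day 28 and day 1 (log2) over the tested members of each gene and marker list, with the number tested in parentheses, in TiO2 livers (filled circles) and vehicle livers (open squares). The dashed line is the median of all features in TiO2 livers, 0.00375, and the acute phase list has the lowest TiO2 median at -0.265. Medians carry no test, and many of them change sign under other processing.

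No marker of resident cells passed. None of the 14 hepatocyte, 16 Kupffer cell, 14 T and natural killer cell, 10 B cell and 11 dendritic cell markers tested had an unadjusted p under 0.05 in limma. The Kupffer cell median was -0.045, and within scan days 1, 2 and 3 it was -0.23, 0.50 and -0.32. Among 17 markers of sinusoidal endothelium 3 were higher (17.6% against 4.7% of all features) and 0 lower at an unadjusted p under 0.05, and 0 in either direction in vehicle livers. These were Fcgr2b at 0.35 ± 0.12, Dnase1l3 at 0.42 ± 0.17 and the scavenger receptor Stab1 at 0.33 ± 0.14, with vehicle differences of -0.09, -0.23 and 0.04. The other 2 Fcgr2b probes gave 0.15 and 0.35 and the other Stab1 probe 0.12. Their adjusted p was 0.39 to 0.529, and within scan day 1 Fcgr2b and Dnase1l3 stood at -0.10 and -0.02. The globin genes Hbb-bt and Hba-a1 differed by -0.38 ± 0.17 and -0.43 ± 0.21, a measure of blood in the sample, and the other 3 Hbb-bt probes gave -0.04 to -0.30. Of 8 erythroid markers tested 2 were lower at an unadjusted p under 0.05 (25% against 4.02% of all features) and 0 higher. Their median was -0.19 (vehicle -0.27). In whole tissue, fewer cells of a type and less RNA per cell cannot be told apart.

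Genes were also ranked by the difference between the TiO2 and the vehicle change. The smallest p in the positive direction was that of Rgs5, a regulator of G protein signalling marked for pericytes and stellate cells, at 0.34 ± 0.11 in TiO2 and -0.35 ± 0.13 in vehicle livers, a difference of 0.69 ± 0.17 (unadjusted p = 0.0005, adjusted p = 1). Zfp111, Olfr726, Il15ra and Cnr2 followed, with unadjusted p of 0.00133 to 0.00357. For Il15ra the other probe gave a TiO2 difference of 0.07 against 0.31. In the negative direction Saa3 and Saa1 came first, followed by Mchr1, Strn and Fkbp1b with unadjusted p of 0.00251 to 0.00513. Within the acute phase list 7 of 33 genes had a negative difference at an unadjusted p under 0.05 and 0 a positive one, against 1.07% and 1.74% of all features.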

How the data were processed

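The deposited scanner files of 21 arrays hold intensity values per the file headers, the median brightness of each spot and its local background, with no normalization. The authors' deposited LogRatio column is a log10 ratio after the scanner software's own correction, per the file headers, and the deposited table of processed values holds log2 values of unstated scale, centring and direction. These were inferred from a match to ratios of the same arrays (correlations 0.9957 to 0.9971, column medians -0.058 to -0.011). The headers name Feature Extraction 10.7.3.1 and the submitters' processing notes 9.5.3.1.

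Median signals (mean signals are not among the columns used) were corrected in limma 3.58.1 (R 4.3.3) by normexp with offset 50, followed by loess within arrays with control spots at weight 0. Spots marked deviant, 103 to 493 per array, were left out, and a deviant background was replaced by the array's median background. Normexp could not be fitted to all spots on 3 arrays, and this handling was chosen once that was known. The alternative with normexp on all spots keeps these 3 arrays, so its values are less certain. It gave the lowest acute phase median of the alternatives. The filter kept 21404 of 41174 probes, those with a liver signal well above background in 50% or more of the arrays of any group. Symbols came from RefSeq accessions (assembly GRCm38.p6) for 23374 probes, 17800 had none and 0 several, and each gene was represented by its brightest liver probe, which gave 11255 genes and 6384 unnamed probes. Values were missing on some array for 171 of these. The arrays were designed on build mm8, so probe coordinates are not given. All 21 arrays were fitted in limma with 4 group means and scan day as a fixed block, and p-values were adjusted by Benjamini-Hochberg. Exact two-sided permutation tests of 26 genes exchanged times within scan days (216 splits). Code was tested on simulated data. The precision is limited by the number of arrays.

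Named genes are the passing ones (up to 15 per direction, filled to 10 by smallest p) and up to 4 members of each list with the smallest p. In lists with a passing gene the plan was to name the passing ones alone. The rule also took the 26 genes of the permutation test and the 5 leading genes of the interaction per direction. Lbp, Itih4, Serpina3n, S100a8, S100a9, Cyp2c55, Cyp2e1, Cyp2a5, Cyp3a25, Nr1i2, Nr1i3, the neutrophil granule genes and the unnamed probes fall outside that rule and were named after their values were seen. Some genes that the rule covers are not reported here. Members, lists and rules were chosen with earlier results of these data known. The labels call the samples biological replicates.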

Additional observations from a re-analysis of the deposited data

Results flagged for a closer look

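Of 167 sets of 4 to 6 levels examined for a mouse far from the rest of its group, over 42 features (named genes and unnamed probes), 12 held one. Chance alone flags about 1 in 20. Sets of different genes share the same mice, so the 12 are not independent. The figure given is the gap to the nearest other mouse as a share of the group's whole range. In the TiO2 day 28 livers, Orm1 was far above the others in replicate 5 (0.683, level 7.20), Cyp8b1 far below in replicate 1 (0.746, level 1.24), Per2 above in replicate 1 (0.642, level 0.99) and Fkbp5 above in replicate 6 (0.751, level 1.81). In the vehicle livers of day 28, replicate 1 stood apart for C3 (0.832), Dbp (0.855), Nr1d1 (0.881) and Igfbp1 (0.839), and replicate 2 for Orm3 (0.850). In the vehicle livers of day 1, replicate 1 stood apart for Saa2 (0.778) and Hp (0.847), and replicate 4 for Orm3 (0.732).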

How the results depend on the processing

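The 19 changes in TiO2 livers became 6 without scan day in the model, 33 with slide as a random block and no scan day, 11 with the 12 TiO2 arrays alone, 9 with array weights, 3 with the scanner software's LogRatio, 12 with the liver channel alone and 3 with normexp on all spots, an alternative chosen after seeing the data. Leaving out each TiO2 array in turn gave 9 to 21, and under 13 only without day 1 replicates 1, 3 and 6 (9, 10 and 12) or day 28 replicate 6 (11). The vehicle count was 0 in every alternative except without day 1 replicate 2 (8) and replicate 4 (1), a range of 0 to 8 when arrays were left out, and the count for the difference between treatments was 0 throughout. None of the 19 changed sign in any alternative. Cyp2b10 passed in 25 of 26 alternatives, Lcn2 in 24 of 25, Cyp3a13 in 22, Saa1 in 20, Saa3 in 16, Shld2 in 12, Coq10b in 7 and Atg16l1 in 6 of 26. List medians that changed sign in 4 or more of 26 alternatives were those of cholesterol synthesis (12), stellate cells (11), dendritic cells (8), bile acid (6), and p53 targets, oxidative phosphorylation, hepatocytes, Kupffer cells and B cells (4 each). The cause of these shifts was not tested. No paired analysis was possible because the labels give the mice no replicate numbers that the groups share. Values of dim probes, such as Lcn2 at day 28, are limited by signal over background.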
